A study of Drosophila melanogaster with 39 samples.

Results

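Small RNAs bound to FLAG-HA-tagged Piwi that fall in exons, on either strand, are described here in 14 libraries: 4 from Drosophila ovaries and 10 from ovarian somatic sheath cells (OSC). The members are the sense and antisense exon classes, 2 of the 7 classes into which mapped reads had been sorted (transposon, exon and intron, each by strand, and a class named Rest for everything else). They held 32157000 of 307202925 sorted reads, or 10.5%, against 7.40% for the 2 intron classes and 69.4% for the 2 transposon classes. A sense read has the strand of the annotated transcript and an antisense read the opposite strand.

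The series holds 39 libraries from a study of the specificity loop, the part of Piwi that contacts the first base of a bound piRNA. Each ovary library came from flies whose genotype label gives Piwi>gal4 on both chromosomes (Gal4 in place of Piwi, under the piwi promoter) with a UAS-FLAG-HA-Piwi transgene carrying the Ago3 loop (Piwi-SL(Ago3)), a synthetic glycine-serine-serine loop (Piwi-SL(GSS)), no loop (loop deficient, Piwi-LD) or the wild type loop (wt). The study's text gives the LD ovaries as heterozygous for Piwi>Gal4, which goes against that label. The OSC line is a cultured line of somatic ovary cells, transfected transiently with an episomal plasmid, in a cell background that was otherwise the same throughout. Its 10 constructs carried the loops of Ago3, Aub, AtAGO1, AtAGO5 and HsAGO2, the HsAGO2 loop with a P>T exchange, the Piwi loop with an N>P exchange, the GSS loop, no loop, or the wt loop. Of the 39 libraries, 20 were OSC immunoprecipitates, 4 ovary immunoprecipitates and 15 total ovary RNA. The last were not used here, and ages were not stated in the sources used here. Class counts exist for 1 library of each construct, so no mutant was tested against its wt, and the counts name no genes, so the cell type labels could not be checked against marker genes.

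Piwi is the nuclear member of the Drosophila PIWI family and silences transposons at the level of chromatin, guided by piRNAs that are mostly antisense to the transposons. Somatic follicle cells, from which OSC derive, make piRNAs without the reciprocal cutting cycle of Aub and Ago3 that operates in germ cells, and an ovary contains both kinds of cell. A known second source of piRNAs in follicle cells is messenger RNA, mainly the 3′ untranslated region of genes such as traffic jam, a transcription factor gene. Such genic piRNAs have the strand of the messenger RNA, which the sense exon class would collect. Antisense exon reads need a transcript running against an annotated exon, as where genes overlap, or a source elsewhere with the same sequence.

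The tagged proteins were designed to differ in the loop. The primers that wrote the 3 loops shared by both tissues into the cloned Piwi coding sequence are shown to make the changes visible. The piwi gene itself lies on chromosome 2L, 10982205 to 10987420, minus strand, in the dm6 coordinates of the reference annotation. The primers were taken from the study's list of oligonucleotides and run 5′ to 3′. Capitals mark the part that the list sets apart from the rest of each primer. That part need not be new in every base, since the start of the Ago3 forward primer resembles the lower-case part of the GSS forward primer.
Ago3 loop, forward: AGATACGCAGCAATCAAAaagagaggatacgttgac
Ago3 loop, reverse: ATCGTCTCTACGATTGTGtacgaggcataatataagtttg
GSS loop, forward: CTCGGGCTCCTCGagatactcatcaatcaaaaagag
GSS loop, reverse: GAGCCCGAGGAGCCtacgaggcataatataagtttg
LD, forward: GGCGGCtactcatcaatcaaaaagagag
LD, reverse: GCCGGCgcataatataagtttgggatc
The part in capitals is 18 bases long in each Ago3 primer, 13 and 14 in the GSS primers and 6 in each LD primer.

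Several row totals went against the library that the row's label names. The row total equalled the mapped reads of the named library in 7 of 14 rows. The totals labelled HsAGO2 and HsAGO2 P>T equalled each other's mapped reads. The OSC row labelled LD replicate 1 held 2736859 reads, which is the mapped total of LD replicate 2. The OSC rows labelled wt, Ago3 and GSS matched no library. The Ago3 row held 28981364 reads, more than the 14493957 mapped reads of its named library, and Ago3 replicate 2 had 29100764. The wt row held 9716686 reads, also more than the 9684039 mapped reads of its named library. The ovary LD row held 11906858 reads, the 24 to 29 nt reads of its library, which had 17151596 mapped reads, whereas the other 3 ovary rows held all mapped reads. A further difference runs along the tissues: the 4 ovary libraries and the OSC library labelled LD had barcodes that open with NN after the barcode number, where one was given, and the libraries named by the 9 other OSC rows had barcodes without NN. Tissue and barcode form therefore cannot be told apart in these rows except through the single OSC LD row. Depth was not limiting. Row totals lay between 2736859 and 64892223 reads, and the exact 95% binomial (Clopper-Pearson) interval of an exon share was at most 0.0643 percentage points wide. These intervals cover counting error only, since amplified reads are not independent molecules.

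Exons gave a smaller share of Piwi-bound reads in ovaries than in OSC. Both strands together were 4.57% of all sorted reads in ovary Piwi-SL(Ago3), 4.71% in Piwi-SL(GSS), 2.14% in Piwi-LD and 7.75% in wt. In the 10 OSC rows the same share had a lowest value of 7.99% (LD), a median of 11.1% and a highest value of 16.7% (wt). The tissues did not overlap, although the highest ovary row and the lowest OSC row lay close together. The mean was 4.79% ± 2.30 in ovaries (SD, n = 4 constructs) and 11.6% ± 2.22 in OSC (SD, n = 10 constructs), a difference of -6.79 percentage points (two-sided exact permutation test of the tissue labels over 1001 arrangements, p = 0.001, the smallest they can give, and 0.002 after Benjamini-Hochberg adjustment over 8 results). Constructs stand in for replicates in this test, so its p measures the spread between constructs and not between flies or cultures. A lower ovary share was not particular to exons. Intron reads of both strands were 2.64% to 6.63% of sorted reads in ovaries (median 3.98%) and 6.55% to 10.8% in OSC (median 7.77%). In the constructs of both tissues, the ovary intron share was 0.244 (LD) to 0.948 (wt) of the OSC intron share.

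The lower ovary exon share was seen for each construct measured in both tissues. The ovary exon share was 0.361 of the OSC share with the Ago3 loop, 0.433 with the GSS loop, 0.268 for LD and 0.463 for wt. With these 4 pairs alone the mean difference was -7.28 points, and an exact sign-flip test gave p = 0.125, the smallest that 4 pairs allow. Without the LD row of each tissue the difference was -6.30 points (exact permutation test, adjusted p = 0.00909). Among the libraries with an NN barcode, a comparison chosen after the data were seen, the 4 ovary rows averaged 4.79% and the lone OSC row, LD, was 7.99% (exact permutation p = 0.4 of 5 arrangements). The part of barcode form in the tissue difference was not tested.

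**Figure D1:**
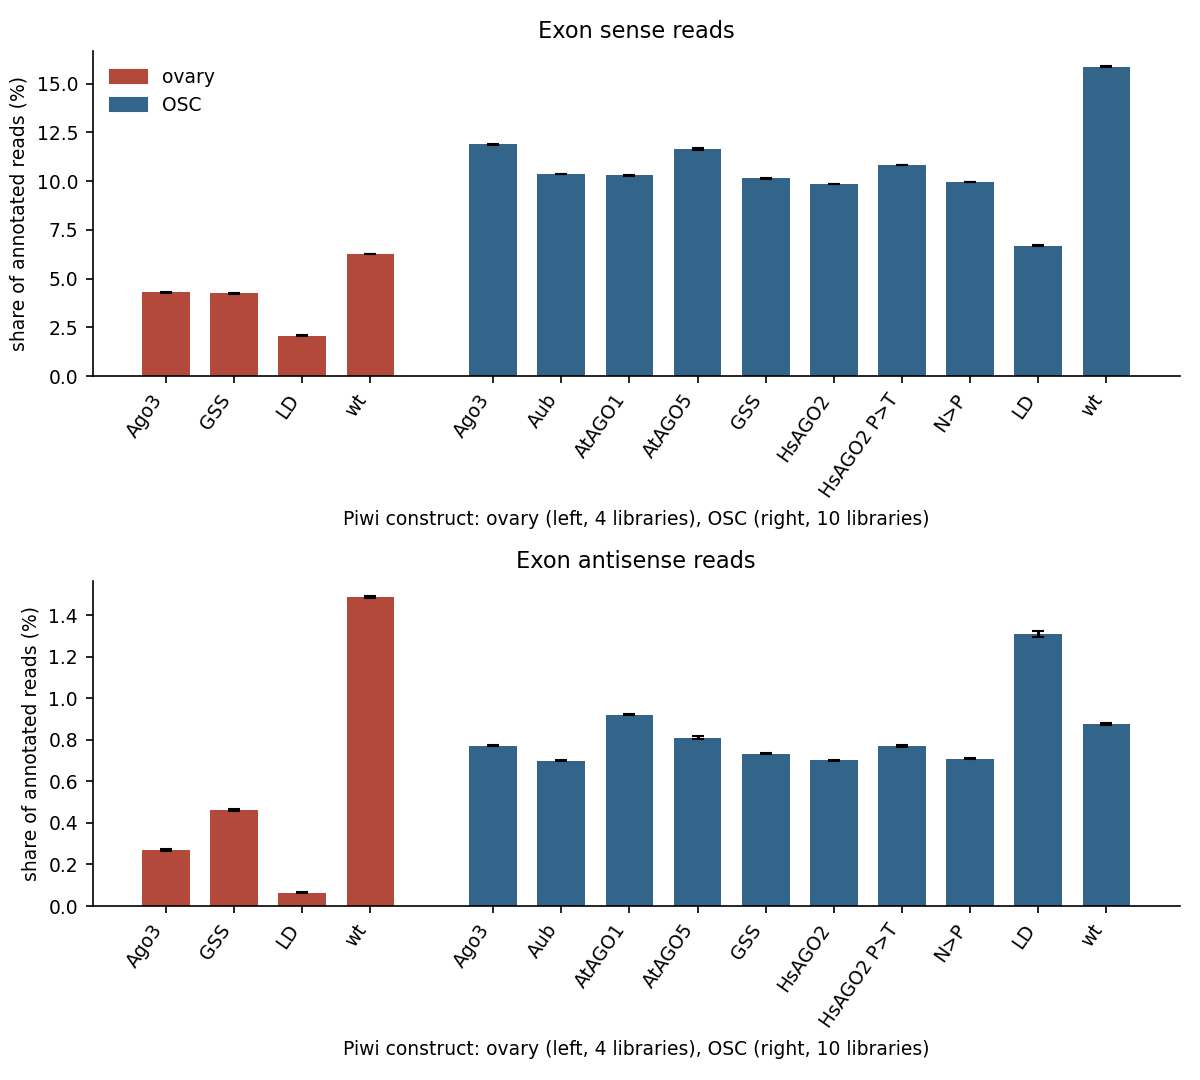
Sense (top) and antisense (bottom) exon reads as a share of all sorted reads in percent, 1 bar per library, ovary in red and OSC in blue, with exact 95% counting intervals as error bars. Sense shares of the ovary bars end at 6.26% and those of the OSC bars start at 6.68%, whereas the antisense bars of the tissues overlap, with ovary wt (1.49%) and OSC LD (1.31%) highest.

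In percentage points most of this difference lay on the sense strand, which holds most exon reads. Sense exon reads were 4.30% in ovary Piwi-SL(Ago3), 4.25% in Piwi-SL(GSS), 2.08% in Piwi-LD and 6.26% in wt. In OSC they ran from 6.68% (LD) through a median of 10.3% to 15.9% (wt). All ovary rows lay below all OSC rows, and the means differed by -6.53 points (4.22% ± 1.71 against 10.8% ± 2.29, SD, 4 and 10 constructs; exact permutation p = 0.001, adjusted p = 0.002). Antisense exon reads were much rarer and overlapped between the tissues. They were 0.272% in ovary Piwi-SL(Ago3), 0.464% in Piwi-SL(GSS), 0.0649% in Piwi-LD and 1.49% in wt. The OSC values ran from 0.698% (Aub) through a median of 0.772% to 1.31% (LD). The ovary rows thus held both the highest and the 3 lowest antisense shares of all 14. The difference of means was -0.26 points (0.572% ± 0.631 in ovaries and 0.830% ± 0.184 in OSC, SD, 4 and 10 constructs; exact permutation p = 0.246, adjusted p = 0.328). On the log2 odds scale, which compares relative size, the difference was -1.30 for antisense (exact permutation p = 0.042, adjusted p = 0.0671) and -1.53 for sense (adjusted p = 0.002). The antisense comparison depended on single rows. Without the LD row of each tissue the difference was -0.036 points (exact permutation test, adjusted p = 0.827). Without the ovary wt row it was -0.56 points (exact permutation test, adjusted p = 0.00559), and as a difference of medians it was -0.40 points (adjusted p = 0.0256).

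Leaving the Rest class out of the denominator raised every share but kept the tissues apart. The exon share of the reads outside Rest was 5.74% in ovary Piwi-SL(Ago3), 5.55% in Piwi-SL(GSS), 2.32% in Piwi-LD and 9.61% in wt, against 11.9% to 18.7% in OSC with a median of 12.7%. The means differed by -7.64 points (5.80% ± 2.99 in ovaries, 13.4% ± 2.03 in OSC, SD, 4 and 10 constructs; exact permutation p = 0.001, adjusted p = 0.002). The OSC LD row moved most, because Rest took 33.0% of its reads, against 10.5% to 13.8% in the other OSC rows. Its exon share was 7.99% with Rest, far below the other OSC mutants (10.6% to 12.7%), and 11.9% without Rest, next to the lowest of them (12.1%). In the ovary the order was reversed: Rest took 7.50% of the LD reads and 15.1% to 20.3% in the other rows. The ovary LD row held 24 to 29 nt reads only and the other ovary rows all mapped reads, so these Rest shares cover unlike read lengths.

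**Figure D2:**
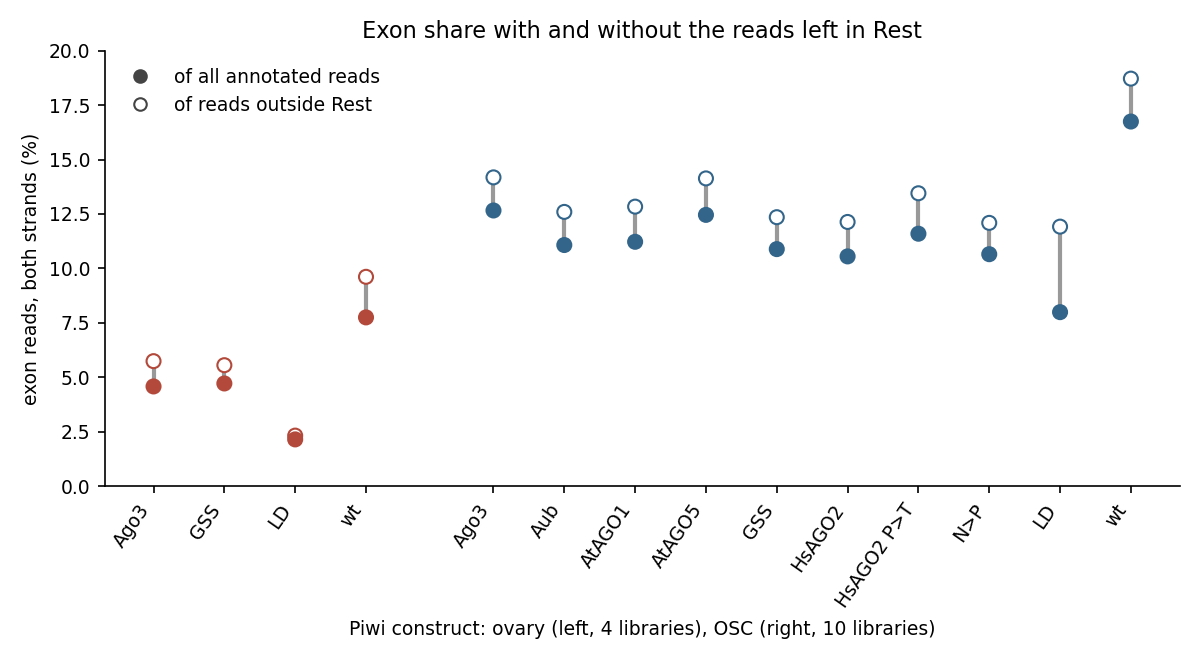
Exon share of both strands in percent, as a share of all sorted reads (filled) and of reads outside the Rest class (open), 1 pair of points per library, ovary in red and OSC in blue. The line between the points is longest for OSC LD (7.99% and 11.9%) and shortest for ovary LD (2.14% and 2.32%).

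Exon reads were mostly sense in every library. The ratio of sense to antisense exon reads was 15.8 in ovary Piwi-SL(Ago3), 9.15 in Piwi-SL(GSS), 32.0 in Piwi-LD and 4.21 in wt, with exact 95% intervals of 15.5 to 16.1, 9.06 to 9.25, 31.3 to 32.8 and 4.20 to 4.23. In OSC it was 5.11 in LD (5.05 to 5.17), 11.2 in AtAGO1, 13.8 to 15.4 in the 7 other mutants and 18.1 in wt (18.0 to 18.3). The lowest and the highest of all 14 ratios were therefore both from ovaries. The highest, that of ovary LD, was counted on 24 to 29 nt reads only. As a percentage, antisense reads made up 19.2% of the exon reads of ovary wt, 16.4% of those of OSC LD and 3.03% to 9.85% in the 12 other rows. In the order of all 14 ratios, neighbours differed beyond counting error except between the HsAGO2 loop, its P>T form and the N>P form of the Piwi loop in OSC, at 14.05, 14.03 and 14.02. The HsAGO2 pair has exchanged totals, and their closeness holds whichever row is which.

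The tissues did not separate by strand ratio. On the log2 scale the mean ratio was 3.56 ± 1.24 in ovaries and 3.69 ± 0.50 in OSC (SD, 4 and 10 constructs), a difference of -0.13 (exact permutation p = 0.818, adjusted p = 0.818). The ovary rows spread more widely around their mean than the OSC rows, and that difference in spread was not tested. Without the LD row of each tissue the difference was -0.76 (exact permutation p = 0.0409, adjusted p = 0.0606), and without the ovary wt row it was 0.37, of opposite sign (exact permutation test, adjusted p = 0.357).

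Introns and transposons give the comparison within each library. Intron reads were less one-sided than exon reads in all 14 rows, with sense to antisense ratios of 1.22, 1.46 and 2.21 in ovary Piwi-SL(Ago3), Piwi-SL(GSS) and Piwi-LD, 2.49 in ovary wt, and 1.74 to 2.52 in OSC. Transposon reads ran the other way in all 14 rows, with antisense to sense ratios of 1.91, 2.57 and 2.04 in the same 3 ovary mutants, 4.56 in ovary wt and 11.7 to 17.6 in OSC. The log2 exon ratio exceeded the log2 intron ratio by 2.74 ± 1.42 in ovaries and 2.58 ± 0.57 in OSC (SD, 4 and 10 constructs), a difference of 0.16 (exact permutation p = 0.771, adjusted p = 0.818). It exceeded the log2 transposon ratio by 4.94 ± 0.77 in ovaries and 7.45 ± 0.50 in OSC, a difference of -2.51 (exact permutation p = 0.001, adjusted p = 0.002). Of that -2.51, the exon ratio's own difference between tissues was -0.13, and the rest was the difference of the transposon ratio. Without the LD row of each tissue the excess over introns differed by -0.37, of opposite sign (exact permutation test, adjusted p = 0.535).

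**Figure D3:**
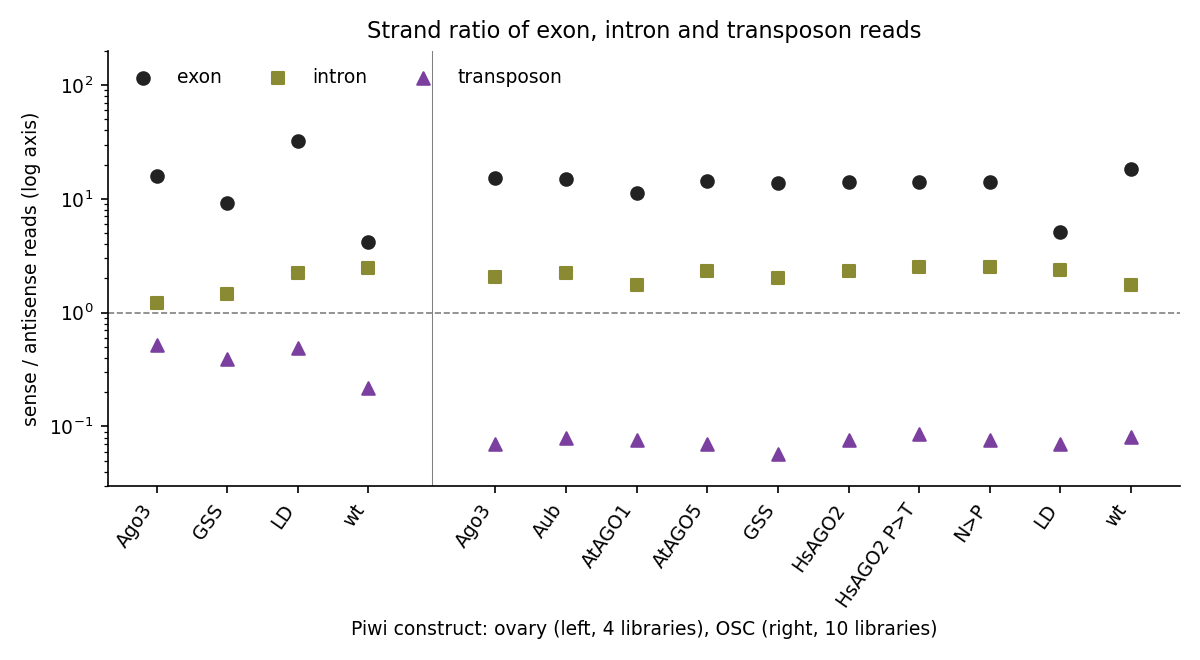
Ratio of sense to antisense reads (log axis) of exons (circles), introns (squares) and transposons (triangles) in each library, ovary left of the vertical line and OSC right of it, with equal strands at the dashed line. Exon points lie between 4.21 and 32.0, intron points between 1.22 and 2.52, and transposon points below 1 everywhere, at 0.219 to 0.524 in ovaries and 0.0569 to 0.0855 in OSC.

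Relative to the wt row of the same tissue, sense exon reads were lower in every mutant. The mutant to wt ratio of the sense share was 0.687 for ovary Piwi-SL(Ago3), 0.678 for Piwi-SL(GSS) and 0.332 for Piwi-LD. In OSC all 9 mutants lay below wt, from 0.421 for LD to 0.749 for Ago3, and LD stood at 0.562 when Rest was left out. The 2 tissues thus shared the direction and, for LD, the lowest place. Each set of ratios divides by a single wt library, so an unusual wt row would move all of them at once. Ovary LD also held only 24 to 29 nt reads, unlike ovary wt.

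Antisense exon reads did not follow the sense reads. In ovaries the antisense share was further below wt than the sense share in all 3 mutants, with mutant to wt ratios of 0.183 (Ago3 loop), 0.312 (GSS loop) and 0.0436 (LD). In OSC, 7 of 9 mutants lay below wt and by little, with mutant to wt ratios of 0.798 to 0.926, while AtAGO1 was at 1.05 and LD at 1.49. For LD the 2 tissues went opposite ways: its antisense share was 0.0649% in the ovary, against 1.49% in ovary wt, and 1.31% in OSC, against 0.875% in OSC wt. The ovary LD row held 24 to 29 nt reads only and the ovary wt row all mapped reads, so the ovary values cover unlike read lengths. The study's text also gives the LD flies as heterozygous for Piwi>Gal4. In OSC, Rest took 33.0% of the LD row and 10.5% of the wt row. The total of the OSC LD row is that of LD replicate 2, in which 31.8% of raw reads mapped. Its named library has an NN barcode, unlike the named library of OSC wt. The part of read length, genotype or these library differences in the LD values was not tested.

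As a result the strand ratio of the mutants lay on opposite sides of wt in the 2 tissues. It was 3.76, 2.17 and 7.60 times the wt ratio in ovary Piwi-SL(Ago3), Piwi-SL(GSS) and Piwi-LD. In OSC the same 3 mutants were at 0.848, 0.763 and 0.282 of wt, and all 9 OSC mutants were below wt (0.282 to 0.848). Intron reads showed the reverse arrangement. The intron strand ratio was below wt in all 3 ovary mutants (0.491, 0.587 and 0.889 times wt, in the same order) and above wt in all 9 OSC mutants (1.01 to 1.45 times). No test of these differences was possible with 1 library of each construct. Each side is relative to a single wt row. The exon ratio of ovary wt (4.21) was the lowest of all 14 rows and that of OSC wt (18.1) the highest in OSC. With the Ago3 loop the ratio itself was 15.8 in the ovary and 15.4 in OSC. The totals of the OSC wt, Ago3 and GSS rows match no library. For ovary LD, reads of 24 to 29 nt were set against all mapped reads of ovary wt.

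**Figure D4:**
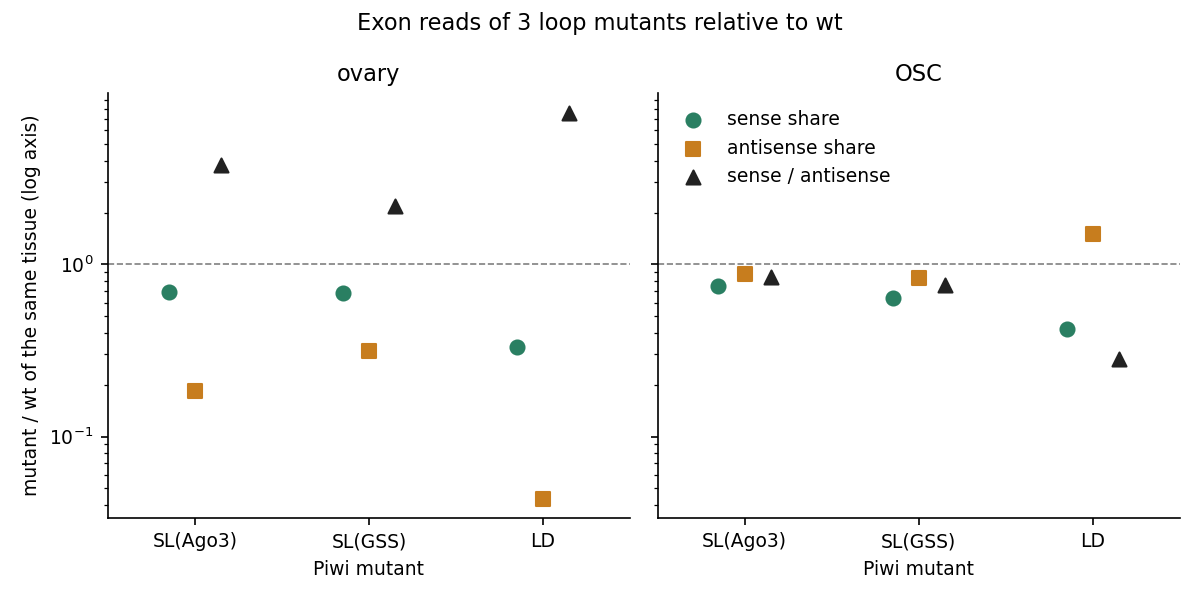
Mutant value divided by the wt value of the same tissue (log axis) for the sense exon share, the antisense exon share and their ratio, in ovaries (left) and OSC (right), 1 library per mutant and per wt. Ratios of sense to antisense lie above the dashed line of no difference in ovaries (2.17 to 7.60) and below it in OSC (0.282 to 0.848), and the antisense share of LD is at 0.0436 in ovaries and 1.49 in OSC. Ovary LD holds 24 to 29 nt reads only, whereas ovary wt holds all mapped reads. OSC LD has 33.0% of its reads in Rest, against 10.5% in OSC wt.

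Exon reads could also be set against intron reads, as the part of all genic reads that fell in exons. It was 55.8% in ovary Piwi-SL(Ago3), 52.1% in Piwi-SL(GSS), 44.8% in Piwi-LD and 53.9% in wt, against 42.5% (LD) to 70.5% (wt) in OSC. The tissues overlapped, with means of 51.6% ± 4.82 and 58.9% ± 7.36 (SD, 4 and 10 constructs; difference -7.27 points, exact permutation p = 0.0959, adjusted p = 0.153). Without the OSC LD row the difference was -9.09 points (exact permutation test, adjusted p = 0.00895). LD had the lowest part in both tissues, from rows unlike the others. The ovary LD row held 24 to 29 nt reads only. The OSC LD row has the total of LD replicate 2, in which 31.8% of raw reads mapped.

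By strand, sense exon reads outnumbered sense intron reads in 13 of 14 rows. The ratio was 2.16 in ovary Piwi-SL(Ago3), 1.65 in Piwi-SL(GSS), 1.14 in Piwi-LD and 1.32 in ovary wt, and 1.67 to 3.57 in the OSC rows other than LD, which was at 0.881. Antisense exon reads were fewer than antisense intron reads in all 14 rows. The ratio was 0.166, 0.263 and 0.0788 in the ovary mutants Piwi-SL(Ago3), Piwi-SL(GSS) and Piwi-LD, against 0.781 in ovary wt, the highest of all 14, and it was 0.277 to 0.405 in OSC. The high antisense exon share of ovary wt was thus not matched by its antisense intron reads.

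The reference annotation shows what these classes can cover. Over 7 chromosome arms and without annotated transposons and structural RNAs, exons of 17587 genes span 36.6 Mb of stranded sequence and introns 58.3 Mb. Coding sequence is 62.5% of the exon length, 3′ untranslated regions 18.9% and 5′ untranslated regions 11.1%. Of the exon length, 4.20% lies opposite an exon of a gene on the other strand, and a further 6.51% opposite an intron. Per Mb, sense reads were 3.44 times as dense in exons as in introns in ovary Piwi-SL(Ago3), 2.63 times in Piwi-SL(GSS), 1.82 times in Piwi-LD and 2.11 times in ovary wt, and 1.40 to 5.69 times in OSC. Antisense reads were less dense in exons than in introns in 13 of 14 rows, at 0.265, 0.419 and 0.125 in the ovary mutants in the same order and 0.441 to 0.645 in OSC. Ovary wt was the exception, at 1.24. The exon models that the authors counted on are not given in the sources used here, so these densities are approximate.

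Within OSC, the libraries named by the rows of 4 mutants differed from those of 4 other mutants in how much of the library mapped. Piwi N>P, Aub and both HsAGO2 forms had 80.6% to 84.1% of raw reads mapped and 1.50% to 2.80% of 20 to 30 nt reads at 20 to 23 nt, whereas the named libraries of Ago3, AtAGO1, AtAGO5 and GSS had 90.6% to 91.8% and 10.5% to 44.1%. The exon part of genic reads was 55.6% to 58.1% in the first 4 and 59.8% to 65.9% in the second 4. The ratio of sense to antisense exon reads overlapped between them, at 14.02 to 14.9 and 11.2 to 15.4. The Ago3 and GSS rows have totals that match no library, so their exon values may be of another library than these mapping values. LD, with 22.1% of raw reads mapped in its named library, was in neither set. The split did not hold over all replicates: GSS replicate 3 had 73.8% of raw reads mapped and 6.17% at 20 to 23 nt. The part of mapping or read length in the exon values was not tested beyond the correlations that follow.

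Over the 10 OSC constructs, exon shares without Rest were related to the mean mapped share and the mean 20 to 23 nt share of each construct's libraries, 4 relations in all. The antisense share rose with the 20 to 23 nt share by rank (Spearman's rho = 0.82, permutation p = 0.00554, adjusted p = 0.0222) but not on the linear scale (Pearson's r = 0.40, permutation p = 0.104, adjusted p = 0.147). The rank relation no longer passed without AtAGO1 and LD, the constructs farthest from the median (rho = 0.67, permutation test, adjusted p = 0.169; r = 0.60, permutation p = 0.109). It did not pass without LD alone (rho = 0.77, permutation test, adjusted p = 0.0848), where the linear relation did (r = 0.82, permutation p = 0.00611, adjusted p = 0.0244). With LD placed at its replicate 2, whose total the row holds, a setting chosen after the data were seen, neither passed (rho = 0.62, permutation test, adjusted p = 0.12; r = 0.17, permutation p = 0.445). By rank it still passed with Rest in the denominator (rho = 0.82, permutation test, adjusted p = 0.023). It also passed with length shares from the replicate each row names, likewise chosen after the data were seen (rho = 0.81, permutation test, adjusted p = 0.0297). The relation thus depended on how LD was entered and, on the linear scale without LD, on AtAGO1.

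The antisense share had r = -0.91 with the mapped share (permutation p = 0.0992, adjusted p = 0.147; rho = 0.19, permutation p = 0.606, adjusted p = 0.808). That value rested on LD, which had 31.1% of reads mapped on average against 80.6% to 91.8% in the others: without LD r was 0.72 (permutation test, adjusted p = 0.0551), and without LD and AtAGO1, the 2 farthest from the median, it was 0.63. The sense share had r = -0.07 with the 20 to 23 nt share (permutation p = 0.783, adjusted p = 0.783; rho = -0.07, permutation p = 0.866, adjusted p = 0.866) and r = 0.50 with the mapped share (permutation p = 0.110, adjusted p = 0.147; rho = 0.64, permutation p = 0.0543, adjusted p = 0.109). Without the 2 farthest constructs these were 0.53 and 0.61. In LD replicate 2, reads of 20 to 30 nt were 54.8% of mapped reads, against 89.9% to 94.5% in the named libraries of the other OSC constructs and 78.2% to 89.7% in the ovary libraries.

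**Figure D5:**
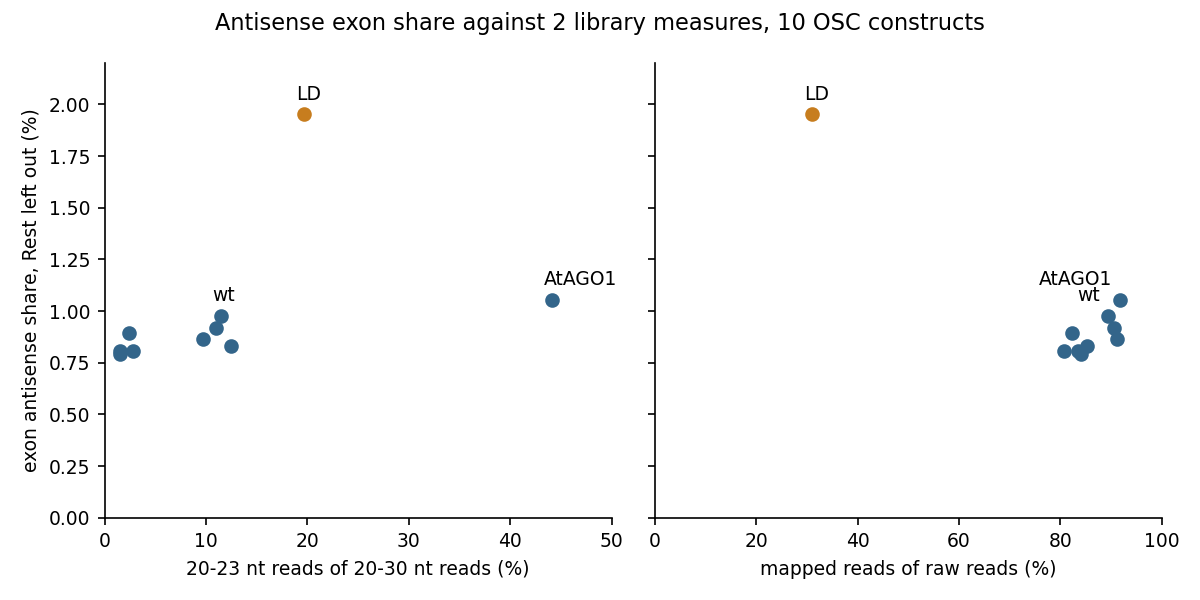
Antisense exon share of reads outside Rest in percent, against the 20 to 23 nt share of 20 to 30 nt reads (left) and the mapped share of raw reads (right), both in percent and as means over a construct's libraries, 1 point for each of 10 OSC constructs. LD (orange) stands at 1.95% with 31.1% of reads mapped, and the 9 others lie between 0.794% and 1.05%.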

How the data were processed

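Tagged Piwi was immunoprecipitated by the authors and the bound small RNAs were sequenced. Per the labels and the study's methods, adapters were removed with cutadapt, structural RNAs were removed and reads were mapped to dm6 with STAR, with multimapping reads kept up to 100 sites. The deposited values used here are counts of reads per class in 14 rows, 1 library of each construct in each tissue. There were 10 constructs in OSC, and 4 of them were also measured in ovaries. Counts of raw, uniquely mapped, multimapping and 20 to 30 nt reads per library were used as well. The study describes the class counts as those of 24 to 29 nt reads, and that held for the total of the ovary LD row only. The exon models and the order in which the classes were assigned are not given in the sources used here. The mapping and length tables of total RNA were not used here, and 0 columns of the tables used were unmatched to a sample.

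Shares, strand ratios, log2 ratios and exact 95% intervals were obtained with scipy 1.17.1, pandas 2.3.3 and numpy 2.4.6 under Python 3.11.15 (figures: matplotlib 3.10.9). Tissues were compared by a two-sided exact permutation test of the absolute difference of means, ovary minus OSC, with Benjamini-Hochberg adjustment over 8 results and a threshold of 0.05. Correlations used 100000 two-sided permutations and adjustment over 4. The tests were checked on simulated data. Alternatives were the difference of medians, leaving out each row or both LD rows, the 4 constructs of both tissues, log2 odds and the denominator without Rest. The setting with NN barcodes only, and other library choices for correlations, were added after seeing the data. Members, lists and tests were chosen with earlier results of these data known. No gene was named from values, since the classes carry no gene names. Lengths came from Ensembl release 115 of the reference annotation (dm6 coordinates).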

Additional observations from a re-analysis of the deposited data

Results flagged for a closer look

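Within the 10 OSC rows, 2 constructs stood apart from the rest by Dixon's criterion for a single distant value. The wt row was highest in exon share, at 16.7% of all sorted reads and 18.7% without Rest. The LD row was highest in antisense exon share (1.31%). It was lowest in the log2 exon strand ratio (2.35), in that ratio minus the intron ratio (1.12), in that ratio minus the transposon ratio (6.19) and in the exon part of genic reads (42.5%). Of 16 sets examined, 7 were past the critical value, where chance gives about 1 in 20 for a single set. The 7 came from 2 rows and from measures that share the same reads, so they are not independent. Their number therefore cannot be set against that rate. The wt share of all sorted reads and the LD exon part of genic reads were past the critical value only narrowly. None of the ovary sets was past the critical value. The LD row is also the 1 OSC row of class counts whose named library has an NN barcode, its total is that of a replicate other than the labelled one, and 33.0% of its reads were in Rest. Their part in its exon values was not tested.

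The log2 strand ratio of mutants minus wt was of opposite sign in the 2 tissues for the 3 shared mutants. In ovaries it was 1.91 with the Ago3 loop, 1.12 with the GSS loop and 2.93 without a loop, and in OSC it was -0.24, -0.39 and -1.83 for the same mutants. The difference between tissues was not tested, since each tissue has 1 wt row. The log2 ratio of ovary wt (2.07) was the lowest of all 14 rows and that of OSC wt (4.18) the highest in OSC. With the Ago3 loop the log2 ratio itself was 3.98 in the ovary and 3.94 in OSC. The totals of the OSC wt, Ago3 and GSS rows match no library. The ovary LD row held 24 to 29 nt reads only, unlike ovary wt, and the part of this in its ratio was not tested.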

How the results depend on the processing

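Exon share, exon share without Rest, sense exon share and the exon ratio minus the transposon ratio kept their direction and stayed past the threshold in the other alternatives run, but not in 2. With the 4 constructs of both tissues their differences were -7.28, -8.49, -6.93 and -2.48, at an exact p of 0.125, which cannot pass. With only the libraries that have an NN barcode they were -3.19, -6.11, -2.46 and -1.25 with 1 OSC row, which cannot pass either; there the exon strand ratio was 1.21 and the exon part of genic reads 9.13, both of opposite sign to the values over all rows. The antisense exon share passed as a difference of medians (-0.40). The exon ratio minus the intron ratio turned to -0.37 without the LD row of each tissue. Leaving out 1 row at a time gave -7.77 to -5.90 for exon share, -8.91 to -6.47 without Rest, -7.21 to -5.82 for sense, -0.56 to -0.089 for antisense, -0.61 to 0.37 for the strand ratio (0.37 without ovary wt), -0.21 to 0.82 for that ratio minus the intron ratio (-0.15 without ovary Piwi-SL(Ago3), -0.21 without ovary LD), -2.87 to -2.29 for that minus the transposon ratio, and -9.09 to -4.98 for the exon part. The causes were not tested.

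Among the correlations, sense share against 20 to 23 nt share was 0.53 without the 2 farthest constructs, 0.018 without LD and 0.028 with LD at replicate 2. Antisense share against mapped share was 0.63 and 0.72 in the first 2 of these settings, and antisense against 20 to 23 nt share passed at 0.82 without LD. No paired analysis was possible because replicate numbers pair nothing where each construct has 1 library of class counts (the sign-flip test paired constructs, not replicates). Depth limits no comparison here; the number of libraries does.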
